A study of Mus musculus with 6 samples.

Results

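Cyclic nucleotide phosphodiesterases are the enzymes that break down cAMP and cGMP. RNA of 9 of their genes was followed here in the dissected amygdala of mice on a zinc diet and of mice on a control diet. The members were all probe sets whose platform annotation named Pde10a, Pde1a, Pde1b, Pde2a, Pde4a, Pde4b, Pde4d, Pde7b or Pde8b. This gave 25 probe sets of the 45101 on the array, and no probe set named a member together with another gene. The members were taken as 3 genes known for abundance in the striatum (Pde10a, Pde1b and Pde7b, with 9 probe sets) and 6 with a broader expression in brain (16 probe sets). That division is background knowledge and could not be checked here, since the amygdala was the one tissue measured.

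The 6 mice were male 129S1/SvImJ (S1) animals of 8 to 10 weeks, an inbred strain in which fear extinction is known to be poor. The label "ZnR" marks 3 mice on the zinc diet (replicates 3, 7 and 10) and "Ctrl" marks 3 on the control diet (replicates 1, 9 and 11). The zinc content of neither diet is stated in the sources used here. The name zinc diet is taken from the label and does not say whether zinc was added or restricted. All 6 went through fear extinction training and were killed 2 h later, so the comparison holds no untrained mouse, and each mouse gave 1 array. Levels are log2 values of GeneChip probe sets, which read the 3′ end of transcripts, and a difference of 1 is a doubling.

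Phosphodiesterases end the second messenger signals that adenylyl and guanylyl cyclases start, and each family differs in the nucleotide it takes and in how it is controlled. In the spiny projection neurons of the striatum they set how long a dopamine or adenosine signal to protein kinase A lasts. The amygdala lies beside the striatum, and its central and intercalated groups hold GABA neurons that share many genes with striatal spiny neurons.

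The region before the start of Pde10a and Pde7b, the members with the largest differences, is shown together with the first of Pde1b. Each run below has 250 bases before and 50 after a transcript start from RefSeq (GRCm38.p6), read 5′ to 3′ on the gene's strand. Capitals mark exact matches, on either strand, to the GC box (GGGCGG), the cAMP response element (TGACGTCA), its shorter core (TGACG, which lies within it), a forkhead core (TGTTTAC) and a MEIS core (TGACAG).
Pde10a, chr17:8801495-8801794, plus strand: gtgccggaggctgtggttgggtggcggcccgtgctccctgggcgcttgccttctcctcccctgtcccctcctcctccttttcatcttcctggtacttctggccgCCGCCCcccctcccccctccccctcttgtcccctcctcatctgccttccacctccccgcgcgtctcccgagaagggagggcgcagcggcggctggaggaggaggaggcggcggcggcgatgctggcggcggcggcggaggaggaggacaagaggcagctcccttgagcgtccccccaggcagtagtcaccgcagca
Pde10a, chr17:8849735-8850034, plus strand: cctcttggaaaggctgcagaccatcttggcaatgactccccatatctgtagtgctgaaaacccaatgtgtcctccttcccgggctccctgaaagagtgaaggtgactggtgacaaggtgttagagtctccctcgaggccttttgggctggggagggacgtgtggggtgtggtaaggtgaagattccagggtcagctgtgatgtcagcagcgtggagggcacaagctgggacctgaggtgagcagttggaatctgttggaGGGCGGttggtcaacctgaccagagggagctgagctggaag
Pde7b, chr10:20548279-20548578, minus strand: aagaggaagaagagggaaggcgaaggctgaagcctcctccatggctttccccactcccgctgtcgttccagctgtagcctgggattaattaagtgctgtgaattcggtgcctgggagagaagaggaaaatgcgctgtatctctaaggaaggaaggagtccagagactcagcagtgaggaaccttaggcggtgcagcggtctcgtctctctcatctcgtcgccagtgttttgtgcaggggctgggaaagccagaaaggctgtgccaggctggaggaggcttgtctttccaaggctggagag
Pde1b, chr15:103502784-103503083, plus strand: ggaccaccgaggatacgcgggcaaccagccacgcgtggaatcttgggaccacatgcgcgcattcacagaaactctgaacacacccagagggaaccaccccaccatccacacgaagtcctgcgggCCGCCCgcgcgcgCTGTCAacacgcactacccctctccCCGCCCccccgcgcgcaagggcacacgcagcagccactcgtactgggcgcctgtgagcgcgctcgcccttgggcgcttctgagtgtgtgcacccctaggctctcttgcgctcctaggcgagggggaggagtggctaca
All 9 members had such windows, 28 in all, and some windows of Pde2a and of Pde8b overlap one another. The first Pde10a window had a GC content of 71.3% and the second 56.7%, against 55.7% in Pde7b, 67.0% in the Pde1b window shown and a median of 52.7% over all 32851 windows of the same length. GC boxes, a motif that 35.7% of all windows hold, stood in both Pde10a windows and in the Pde1b window. Among the broadly expressed genes they stood in 1 window of Pde2a, 2 of Pde4a and 2 of Pde8b. The 2 of Pde8b overlap and hold the same GC boxes. The full cAMP response element, found in 1.79% of all windows, was in 0 of the 28. Its shorter core, found in 20.8% of all windows, was in 0 of the 6 windows of Pde10a, Pde1b and Pde7b. It was in 1 window each of Pde1a, Pde2a, Pde4a, Pde4b and Pde8b. The MEIS core (19.2% of all windows) was in the Pde1b window shown, in 1 more of that gene, in 1 of Pde1a and in 1 of Pde4a, and the forkhead core (3.65%) was in another window of Pde1b.

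The arrays were alike in distribution, with medians from 4.04 to 4.09 and pairwise correlations from 0.991 to 0.996 over the 22877 probe sets whose mean level was at least 4. Of the 10 excitatory amygdala neuron markers looked for, 8 had a probe set and all 8 passed that filter, Rspo2, Lmo3 and Neurod6 among them. Of 12 markers of central and intercalated GABA neurons, 11 passed, and the opioid receptor gene Oprm1 did not. Control replicate 9 stood apart in choroid plexus markers, whose mean level over 4 tested genes was 9.28 there and 5.62 to 6.56 in the other 5 mice. Without that mouse the differences given below for Pde10a and Pde7b were 0.98 and 0.67. Of the 25 member probe sets 17 passed the filter and were tested, 5 of the striatum-rich genes and 12 of the others.

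Pde10a encodes a dual-specificity enzyme for cAMP and cGMP that is a hallmark of spiny projection neurons. On its brightest probe set (1439618_at) the control mice measured 10.60, 10.83 and 10.92 and the zinc diet mice 11.34, 11.90 and 11.99 (log2 levels, here and below in the order of replicates 1, 9 and 11 and of replicates 3, 7 and 10). The diets did not overlap: the highest control mouse, replicate 11, lay 0.417 below the lowest zinc diet mouse, replicate 3. The mean was 10.78 ± 0.17 in control mice and 11.74 ± 0.35 in zinc diet mice (SD, n = 3 each). The difference of 0.96 ± 0.18 (SE; 95% interval 0.52 to 1.40), or 1.95-fold, did not pass over all probe sets (limma adjusted p = 0.39). Of all tested probe sets, 0.192% had a larger absolute difference.

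The other 4 Pde10a probe sets measured the same direction. Probe set 1458499_at gave 5.60, 6.91 and 6.54 in control replicates 1, 9 and 11 and 7.21, 7.93 and 7.51 in zinc diet replicates 3, 7 and 10. Its difference of 1.20 ± 0.35 (SE) came with the widest interval of any tested member, from 0.37 to 2.02, and it was 0.82 without control replicate 1 (limma adjusted p = 0.67 with all mice). Probe set 1419389_at gave 5.54, 5.49 and 5.31 against 6.69, 6.48 and 5.87, a difference of 0.90 ± 0.21 (SE, limma adjusted p = 0.50). Zinc diet replicate 10, the highest mouse on the brightest probe set, was the lowest zinc diet mouse on this one. The remaining probe sets, 1432490_a_at and 1419390_at, had means under 4, where a level cannot be told from background, and differed by 0.52 each. On the 3 tested probe sets every zinc diet mouse lay above every control mouse, as on 6.66% of all tested probe sets. The probe sets with means under 4 had the same order. All 5 probe sets share the RNA of the same 6 mice, so they are repeat readings of 1 gene and not replicates.

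Pde7b encodes a cAMP-specific enzyme. Probe set 1445539_at measured 9.61, 9.69 and 9.89 in control mice and 10.45, 10.54 and 10.28 in zinc diet mice. The diets were separated by a gap of 0.387, from control replicate 11 to zinc diet replicate 10. With 9.73 ± 0.15 against 10.42 ± 0.13 (SD, n = 3 each), the difference was 0.69 ± 0.11 (SE; 95% interval 0.43 to 0.95), or 1.62-fold. It had the smallest p of any member probe set, rank 38 of 22877, and did not pass (limma adjusted p = 0.26). Its spread among the mice of a diet was smaller than that of Pde10a, and so was its difference. The 2 other Pde7b probe sets, with means under 4, differed by 0.40 each, and in both the diets were separated, with the zinc diet higher.

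Pde1b encodes a calmodulin-activated enzyme that links calcium entry to the loss of cyclic nucleotides. It has 1 probe set (1449420_at), which measured 9.48, 10.09 and 10.27 in control mice and 10.23, 10.58 and 10.17 in zinc diet mice. The diets overlapped, since control replicate 11 lay above zinc diet replicates 3 and 10. The difference of 0.38 ± 0.22 (SE; 95% interval -0.14 to 0.90) did not pass (limma adjusted p = 0.84). It rested largely on the low value of control replicate 1, without which it was 0.15 ± 0.15 (SE).

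**Figure D1:**
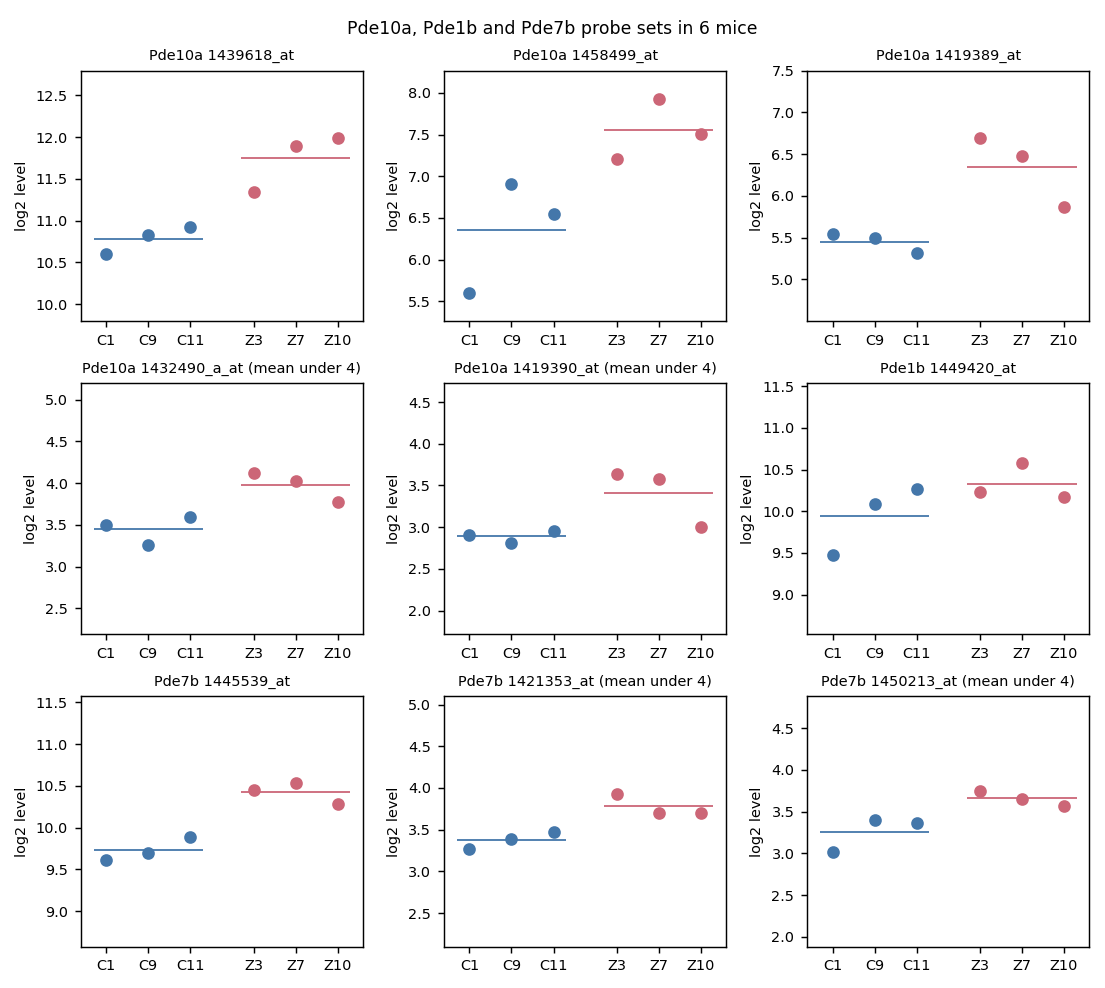
Log2 level (y axis, each panel spanning 3 units) of the 9 probe sets of Pde10a, Pde1b and Pde7b in each mouse (x axis; C, control diet in blue; Z, zinc diet in red), with a line at each diet's mean. In 8 of the 9 panels all zinc diet points lie above all control points, and in the Pde1b panel they overlap. Of the 5 tested probe sets 4 are separated so, as are 6.66% of all tested probe sets. The 4 probe sets not tested have means under 4.

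Pde2a, whose product is a cAMP and cGMP hydrolase that cGMP stimulates, showed no separation of the diets. Its brightest probe set (1447707_s_at) measured 12.86, 13.09 and 13.11 in control mice and 12.98, 12.89 and 12.87 in zinc diet mice. Control replicate 1 was the lowest of the 6 and the other control mice the highest, and the difference was -0.11 ± 0.092 (SE; 95% interval -0.33 to 0.11, limma adjusted p = 0.89). It was -0.18 without control replicate 1 and -0.061 without control replicate 11. The 2 other tested probe sets gave -0.0038 ± 0.11 and 0.026 ± 0.071 (SE), and the first of these changes sign under several settings. Designs ending in s or x can match related transcripts.

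Pde4a, Pde4b and Pde4d encode the cAMP-specific enzymes that rolipram inhibits. Pde4b probe set 1422474_at measured 10.12, 9.97 and 10.07 in control mice and 10.15, 10.21 and 10.14 in zinc diet mice. The zinc diet mice all lay above the control mice, by a gap of 0.0185 that is smaller than either diet's SD (0.078 and 0.042). The difference was 0.11 ± 0.076 (SE; 95% interval -0.067 to 0.29, limma adjusted p = 0.86). Its other 2 tested probe sets went opposite ways, with 0.24 ± 0.11 on 1422473_at and -0.13 ± 0.13 on 1442700_at (SE), and both overlapped. Leaving out control replicate 9 gave 0.071 on 1422474_at and -0.27 on 1442700_at. Leaving out control replicate 1 gave -0.056 on 1442700_at, and leaving out control replicate 11 gave 0.14 on 1422473_at. Pde4d differed by 0.047 ± 0.076 (SE; 95% interval -0.13 to 0.23) on 1435280_at and by 0.27 ± 0.23 on 1459311_at, with overlap on each. The value on 1459311_at was 0.085 without control replicate 11 and 0.52 without control replicate 1, and that on 1435280_at was 0.0029 without control replicate 9 and 0.088 without control replicate 1. Pde4a, with a mean close to the filter of 4, differed by -0.081 ± 0.12 (SE; 95% interval -0.37 to 0.21) on its 1 probe set.

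Pde8b encodes a cAMP-specific enzyme with high affinity for its substrate. Its 2 probe sets differed in how they separated the diets. On 1435741_at the control mice measured 9.75, 9.64 and 9.65 and the zinc diet mice 9.82, 9.82 and 9.74, so that control replicate 1 lay just above zinc diet replicate 10. The difference was 0.11 ± 0.072 (SE; 95% interval -0.058 to 0.28, limma adjusted p = 0.85). On 1437989_at the values were 7.37, 7.36 and 6.96 against 7.52, 7.80 and 7.53, without overlap. That difference, 0.39 ± 0.14 (SE; 95% interval 0.048 to 0.72), did not pass (limma adjusted p = 0.75) and was 0.25 without control replicate 11. Pde1a, a calmodulin-activated relative of Pde1b, measured 11.25, 11.45 and 10.77 against 11.59, 11.14 and 11.19, with overlap and a difference of 0.15 ± 0.20 (SE; 95% interval -0.33 to 0.62, limma adjusted p = 0.94).

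**Figure D2:**
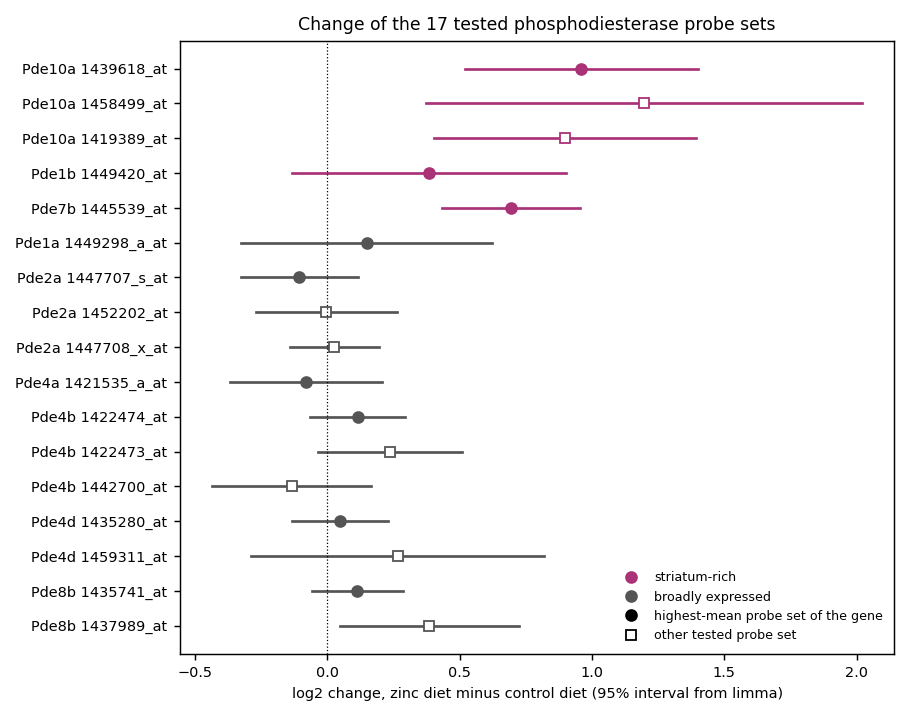
Difference between diets (x axis, log2, zinc diet minus control diet) with its 95% interval from limma for the 17 tested probe sets (y axis). Filled circles are each gene's brightest probe set. Intervals of the Pde10a and Pde7b probe sets and of Pde8b 1437989_at lie above 0, before any adjustment, and the rest span 0.

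None of the members was called at an adjusted p of 0.05 (limma; 0 of 17, and 0% of all 22877), and 5 had an unadjusted p under 0.05, against 6.38% of all tested. At an unadjusted p under 0.01 there were 3 (2 of Pde10a and 1 of Pde7b), all higher in zinc diet mice, where 1.04% of all tested probe sets were called in that direction. In the lower direction there were 0 of 17 (0.485% of all tested). The diets did not overlap, with zinc diet mice above, in 4 of the 5 tested striatum-rich probe sets and in 2 of the 12 others, where 6.66% of all tested probe sets did so. The reverse order was seen in 0 of 17 (5.33% of all tested). With no filter, 6 of the 25 had an unadjusted p under 0.01 and were higher, 4 of Pde10a and 2 of Pde7b, against 0.748% of 45037. For a single probe set the exact permutation test over 3 mice against 3 has 0.1 as its smallest two-sided p, and Pde10a, Pde7b and Pde4b reached 0.1 on their brightest probe sets.

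All 5 tested probe sets of the striatum-rich genes had a positive difference, as did 8 of the 12 others and 53.0% of all tested. Their differences on the brightest probe sets were 0.96, 0.69 and 0.38, with a median of 0.69, against -0.11 to 0.15 and a median of 0.080 for the 6 others. That order does not extend to every probe set or every choice of mice: Pde8b 1437989_at (0.39) was level with Pde1b (0.38), and without control replicate 1 Pde1b was 0.15 and Pde1a 0.19. The median over all tested probe sets was 0.0091. Per mouse, the mean of the 3 genes relative to the control mean was -0.26, 0.049 and 0.21 in control replicates 1, 9 and 11 and 0.52, 0.85 and 0.66 in zinc diet replicates 3, 7 and 10. The mean of the 6 others ran from -0.048 to 0.044 in control mice and from 0.021 to 0.058 in zinc diet mice. The first set separated the diets and the second did not. The contrast between them, 0.64, carries no p because the genes were grouped with results of these data known; it ranged from 0.49 to 0.77 when 1 mouse was left out.

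Markers of spiny projection neurons were higher in the same mice as the striatum-rich members. Of 23 marker symbols written, 20 had a probe set and passed the filter, and all 20 were higher in zinc diet mice, with a median difference of 0.77. The diets did not overlap in 17, with the zinc diet mice above, as in 6.66% of all tested probe sets. Ido1 (3.49) and Syndig1l (3.94) had control means under 4, so they passed the filter only through their zinc diet levels (5.02 and 4.35). By limma 0 of the 20 passed over all probe sets and 17 had an unadjusted p under 0.05, as did 6.38% of all tested. Their mean level was 7.50, 7.76 and 7.79 in control replicates 1, 9 and 11 and 8.58, 8.88 and 8.57 in zinc diet replicates 3, 7 and 10. Control replicate 1 was lowest and zinc diet replicate 7 highest both for the marker mean and for the mean of the 3 phosphodiesterase genes. On the brightest Pde10a probe set zinc diet replicate 10 was highest (11.99), and it was the lowest zinc diet mouse on the marker mean. By smallest p the leading markers were Rgs9 (1.80 ± 0.14 SE), Scn4b, Gpr6, Isl1 and Rasd2 (0.95). The Pde10a difference lay above the list's median, that of Pde7b just under it and that of Pde1b at about the level of the markers Tac1 and Penk (0.35 each). The part of these markers in the phosphodiesterase values was not tested. In bulk tissue a different number of cells of a type and a different amount of RNA per cell cannot be told apart.

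**Figure D3:**
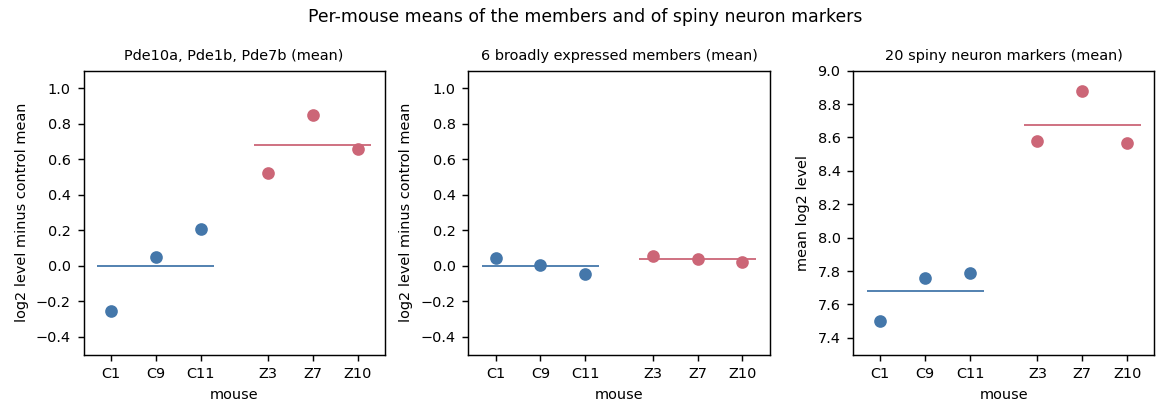
Mean log2 level per mouse (x axis; C, control diet; Z, zinc diet) of the 3 striatum-rich members (left) and the 6 others (middle), each relative to its control mean, and of 20 spiny neuron markers (right), with a line at each diet's mean. The left and right panels separate the diets, and the middle panel stays between -0.048 and 0.058.

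Markers of other cells were measured the same way. Over all tested probe sets, 53.0% were higher in zinc diet mice. Excitatory amygdala markers had a mean level of 9.46 to 9.49 in control and 9.59 to 9.77 in zinc diet mice, with 5 of 8 higher. At an unadjusted p under 0.05 (limma), 4 of the 8 were higher and 1 was lower, against 6.38% of all tested in either direction. The zinc diet mice were all above in 3 and all below in 2, where 6.66% and 5.33% of all tested probe sets did so. Central and intercalated GABA neuron markers ran from 9.80 to 10.229 against 10.233 to 10.32, with 10 of 11 higher. Of these 11, 2 had an unadjusted p under 0.05 (limma) and 1 had all zinc diet mice above. Oligodendrocyte markers overlapped, at 9.01 to 9.63 against 9.53 to 10.23, with 7 of 7 higher. Astrocyte markers (2 of 6 higher), microglia markers (3 of 6), endothelial markers (3 of 4) and hippocampal markers (2 of 5) overlapped too. Their part in the phosphodiesterase values was not tested.

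Of 15 other genes with a Pde symbol, 14 had a probe set and 7 passed the filter. By limma 0 of these 7 passed over all probe sets and 1 had an unadjusted p under 0.05 (Pde1c), against 6.38% of all tested. Over the 7 the difference was positive in 5 and negative in 2, with a median of 0.056. Pde1c, the third calmodulin-activated gene, had the largest difference. It measured 4.38, 5.43 and 4.84 in control mice and 6.14, 5.87 and 5.37 in zinc diet mice, with zinc diet replicate 10 just under control replicate 9, and differed by 0.91 (95% interval 0.21 to 1.62, limma adjusted p = 0.71). The cGMP-specific Pde9a differed by -0.21 and overlapped, and its value was -0.073 without control replicate 11 and -0.41 without control replicate 1. Pde6d, Pde7a, Pde8a, Pde3b and Pde5a lay between -0.025 and 0.095. Pde7a, the closest relative of Pde7b, thus differed by 0.056 (95% interval -0.21 to 0.32), an interval that ends below that of Pde7b; the difference between the 2 genes was not tested. Pde3a, Pde11a and 5 of the photoreceptor Pde6 genes were below the filter.

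In the wider list of cAMP and cGMP signalling genes, 46 of 56 symbols had a probe set and 36 were tested, of which 0 passed over all probe sets (limma; 8 at an unadjusted p under 0.05, against 6.38% of all tested). The difference was positive in 23 and negative in 13, with a median of 0.038. The zinc diet mice were all above the control mice in 7 and all below in 2, where 6.66% and 5.33% of all tested probe sets did. Adcy5, the main adenylyl cyclase of the striatum, measured 10.11, 10.12 and 10.17 in control mice and 10.40, 10.66 and 10.52 in zinc diet mice. Its difference of 0.39 (95% interval 0.18 to 0.60) had the smallest p of the list (limma adjusted p = 0.49). Next on the positive side were Crem (0.36), a transcription factor gene of the cAMP response, the anchoring protein gene Akap5 (0.36) and Adcy7 (0.25). On the negative side were Prkg1 (-0.46), a cGMP-dependent protein kinase gene, and Nos1 (-0.42), the neuronal nitric oxide synthase gene. Nos1 was -0.27 without control replicate 11. Adcy6 (-0.15) and Rapgef3 (-0.18), a cAMP-activated exchange factor gene, followed. Rapgef3 was -0.32 without control replicate 9 and -0.10 without control replicate 11. Genes of cGMP signalling went both ways. The guanylyl cyclase subunit genes Gucy1b1 (0.17), Gucy1a1 (0.14) and Gucy1a2 (0.23) were higher in zinc diet mice. Prkg2 (-0.12) and Npr2 (-0.099) were lower, as were Prkg1 and Nos1.

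The genes whose profile over the 6 mice was most like that of Pde10a were Acvr1c, 9130024F11Rik, Tcfl5, Rspo2 and Fst. Rspo2 is also on the list of excitatory amygdala markers, and none of the 20 spiny neuron markers was among these 5. Likeness was the root mean square difference between profiles centred on their own mean, over 6 arrays and 18192 other genes. It was 0.14 for Acvr1c, an activin-type receptor gene, and 0.19 for Fst, the follistatin gene, against 0.53 for a flat profile. The levels of 9130024F11Rik and Fst were close to 4 in control mice.

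**Figure D4:**
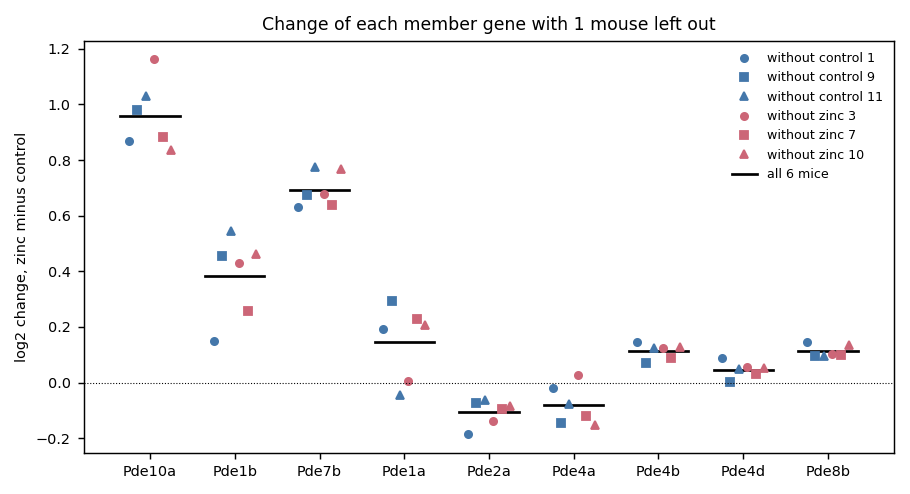
Difference between diets (y axis, log2, zinc diet minus control diet) on each member's brightest probe set (x axis) with all mice (black line) and with 1 mouse left out (symbols, coloured by the diet of that mouse). Pde10a stays between 0.84 and 1.16 and Pde7b between 0.63 and 0.77, whereas Pde1b falls to 0.15 without control replicate 1.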

How the data were processed

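RNA of 6 dissected amygdalae was measured on Affymetrix Mouse430_2 arrays, 1 per mouse, from 500 ng of RNA labelled by a 3′ in vitro transcription kit, per the labels' protocols. The authors deposited 1 table of log2 probe set levels; their scale was inferred from the range of the values, and centring is unknown. The submitters' processing notes list R 2.15.1 and GCRMA 2.28.0 without saying what each did; GCRMA adjusts background by probe sequence, which can stretch or compress low values. Scanner files and detection calls were not used here, and the number of arrays limits precision.

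Control probe sets (64) were left out. The platform annotation gave 1 symbol to 34958 probe sets, several to 932 and none to 9211. Probe sets with a mean log2 level of at least 4 were tested with limma 3.58.1 in R 4.3.3 (lmFit, eBayes, diet as the only term, two-sided), with Benjamini-Hochberg adjustment over all 22877 and a threshold of 0.05. SE is limma's moderated standard error. A gene's brightest probe set is the one whose mean over the 6 arrays is highest. The fit was tested on simulated data for this comparison (22877 probe sets): it recovered 71% of 100 probe sets changed by 1 and 96% of 100 changed by 2 log2 units, with 6 false calls. The simulated noise was independent between probe sets and mice. These shares therefore need not hold for the measured arrays, on which 0 of 22877 passed.

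The members and lists were chosen with earlier results of these data known. All members were named; other genes were named by smallest p within a list, up to 4 each way (5 for spiny neuron markers), or by likeness to Pde10a. Genes given outside this rule (Pde3b, Tac1, Penk and genes named as present or below the filter) were chosen after their values were seen. As alternatives the filter was dropped or raised to 6, arrays were quantile normalised or centred on their medians, eBayes was run with trend and robust settings, arrays were weighted, values under 4 were raised to 4, and the title number was added as a covariate; others were the mean of a gene's tested probe sets, and a fit without each mouse in turn.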

Additional observations from a re-analysis of the deposited data

How the results depend on the processing

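Pde10a, Pde1b, Pde7b, Pde2a, Pde4b, Pde4d and Pde8b kept their direction on the brightest probe set, and stayed short of the adjusted threshold, under every alternative run. Adjusted p over the alternatives (limma) ranged from 0.19 to 0.9999 for Pde10a and from 0.11 to 0.87 for Pde7b. With 1 mouse left out the difference ranged from 0.84 to 1.16 for Pde10a, 0.63 to 0.77 for Pde7b and 0.15 to 0.54 for Pde1b. It ranged from -0.043 (without control replicate 11) to 0.29 for Pde1a and from -0.15 to 0.028 (without zinc diet replicate 3) for Pde4a. The Pde2a probe set 1452202_at turned from -0.0038 to 0.0084 with median centring, 0.0041 with the title number as covariate, and, with 1 mouse left out, ranged from -0.058 to 0.082; probe set 1447708_x_at turned from 0.026 to -0.012 with array weights. Of the other phosphodiesterase genes, the differences with 1 mouse left out crossed 0 in Pde8a (-0.078 to 0.30), Pde5a (-0.16 to 0.068) and Pde7a (-0.019 to 0.16).

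Member probe sets with an unadjusted p under 0.01 and higher levels numbered 3, against 6 with no filter (more probe sets tested), 5 with array weights and 2 to 3 with 1 mouse left out; in the lower direction there were 0 under every alternative. Over all probe sets the count at that p was 349, against 550 with no filter, 628 with array weights and, with 1 mouse left out, 176 (zinc diet replicate 7) to 558 (control replicate 1). Past the adjusted threshold it was 0, against 2 with a mean of at least 6, 3 with trend and robust eBayes and 1 with the title number as covariate. Rgs9 passed in these 3 settings (1.80, 1.80 and 1.81) and Scn4b in the second (3.41).

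No paired analysis was possible because the diets share no replicate number. Groups of 3 are too small for the check for outlying mice. Levels under 4 cannot be told from background.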
